A study of Arabidopsis thaliana with 12 samples.

Results

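Pseudogenes were taken as the features that the processed files list with the type pseudogene, which were 952 of 69056 listed features. The remainder of the list was mostly transposable elements (TEs, 31188) and protein-coding genes (27654). RNA was sequenced from whole Arabidopsis thaliana seedlings grown for 10 days at 22 °C with 16 h of light and 8 h of dark, in 12 libraries, 2 for each of 6 groups. V1200R/cc lines 9 and 15 and CMT2/cc lines 1 and 19 carry a genomic CMT2 fragment with its own promoter and a FLAG tag, with or without the change V1200R, in the cmt2 cmt3 double mutant, called cc. The cc plants have the T-DNA insertion alleles cmt2-7 (WiscDsLox7E02) and cmt3-11 (SALK_148381), which all 4 transgenic lines carry too, and Col-0 is the wild type. Each construct is represented by 2 lines, and the labels do not say whether replicates came from separate plates or sowings, so that p-values measure the spread between these libraries only.

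A pseudogene is a stretch of DNA that resembles a gene but has lost the means to encode a full protein, through a truncation, a frameshift or an early stop codon. In Arabidopsis many pseudogenes lie in the TE-rich chromatin around the centromeres, where CMT3 methylates cytosines in the CHG context and CMT2 mainly those in the CHH context (H is A, C or T), and loss of this methylation can release transcripts. Transcripts that do arise from pseudogenes often carry early stop codons, and such transcripts can be removed by nonsense-mediated decay.

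All 941 nuclear pseudogenes were found at the same positions in the RefSeq annotation of TAIR10.1, and the remaining 11 were 10 mitochondrial features and 1 chloroplast feature. Their span was 69 to 58519 bases, with a median of 754.5 bases, and 632 of the 927 with annotated exons had a single exon. By sequence, 860 of the 941 nuclear pseudogenes matched a RefSeq protein-coding gene elsewhere in the genome, at a median identity of 82.8%. The start regions of 6 pseudogenes on which the results turn are shown here, because CHG is the context in which the V1200R change was designed to let CMT2 act. Each runs 5′ to 3′ along the strand of the pseudogene, 250 bases before to 50 bases after its annotated start in RefSeq TAIR10.1, and capitals mark CAG, CTG, CCG and CGG, which are the CHG trinucleotides of both strands, overlaps included.
AT2G20910 (chr2:8996643-8996942, minus strand): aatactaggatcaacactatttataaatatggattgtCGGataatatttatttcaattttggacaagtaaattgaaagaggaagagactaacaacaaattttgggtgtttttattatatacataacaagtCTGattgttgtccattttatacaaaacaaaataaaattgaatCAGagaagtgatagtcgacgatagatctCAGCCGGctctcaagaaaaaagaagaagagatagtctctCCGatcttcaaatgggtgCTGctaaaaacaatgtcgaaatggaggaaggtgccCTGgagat
AT3G31908 (chr3:12903963-12904262, minus strand): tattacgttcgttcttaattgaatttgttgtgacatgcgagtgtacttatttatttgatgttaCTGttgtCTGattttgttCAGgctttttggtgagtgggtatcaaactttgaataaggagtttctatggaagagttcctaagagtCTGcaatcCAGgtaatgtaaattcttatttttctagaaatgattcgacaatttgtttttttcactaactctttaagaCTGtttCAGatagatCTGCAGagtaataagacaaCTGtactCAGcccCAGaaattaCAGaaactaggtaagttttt
AT5G28230 (chr5:10196524-10196823, minus strand): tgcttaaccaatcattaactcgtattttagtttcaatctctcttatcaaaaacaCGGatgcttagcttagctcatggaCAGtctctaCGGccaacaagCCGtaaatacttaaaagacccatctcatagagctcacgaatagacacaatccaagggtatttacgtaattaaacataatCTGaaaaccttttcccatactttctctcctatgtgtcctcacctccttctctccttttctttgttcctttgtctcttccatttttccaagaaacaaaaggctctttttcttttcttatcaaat
AT4G08093 (chr4:4989903-4990202, plus strand): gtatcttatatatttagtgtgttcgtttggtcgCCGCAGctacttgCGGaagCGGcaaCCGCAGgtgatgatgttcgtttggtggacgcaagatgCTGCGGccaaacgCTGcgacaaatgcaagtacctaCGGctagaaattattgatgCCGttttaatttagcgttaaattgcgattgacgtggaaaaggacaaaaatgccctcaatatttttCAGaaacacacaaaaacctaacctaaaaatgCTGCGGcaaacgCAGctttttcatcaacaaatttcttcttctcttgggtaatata
AT3G30122 (chr3:11761081-11761380, minus strand): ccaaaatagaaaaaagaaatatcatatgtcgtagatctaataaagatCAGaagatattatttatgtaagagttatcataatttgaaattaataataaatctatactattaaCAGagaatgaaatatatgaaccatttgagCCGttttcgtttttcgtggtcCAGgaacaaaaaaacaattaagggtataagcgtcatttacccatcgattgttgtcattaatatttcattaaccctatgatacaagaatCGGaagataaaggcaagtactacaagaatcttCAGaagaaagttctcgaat
AT2G26220 (chr2:11159231-11159530, plus strand): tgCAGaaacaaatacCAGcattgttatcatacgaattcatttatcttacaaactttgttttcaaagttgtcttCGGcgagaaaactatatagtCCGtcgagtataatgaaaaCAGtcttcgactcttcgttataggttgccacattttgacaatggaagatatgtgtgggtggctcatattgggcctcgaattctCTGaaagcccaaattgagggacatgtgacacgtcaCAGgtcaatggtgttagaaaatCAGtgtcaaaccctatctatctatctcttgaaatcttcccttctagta

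A CHG trinucleotide was present in 98.5% of the 941 such windows of pseudogenes and in 99.0% of the 27444 windows of protein-coding genes, with a median of 10 CHG cytosines per window, both strands counted, in either set. The 6 windows held 14, 26, 7, 22, 10 and 14 CHG cytosines in the order printed. The middle range of all pseudogene windows, between the quartiles, was 7 to 15, so that AT3G31908 and AT4G08093 lay above it and the other 4 within it.

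The targeted genes were checked first. CMT2 averaged 119 ± 10.4 TPM (transcripts per 1000000 transcripts) in V1200R/cc line 9, 153 ± 8.89 TPM in line 15, 118 ± 7.0 TPM in CMT2/cc line 1, 80.2 ± 0.835 TPM in line 19, 1.85 ± 0.206 TPM in cc and 14.1 ± 1.23 TPM in Col-0 (SD, n = 2 each). CMT3 averaged 15.2 ± 1.71 TPM in cc against 12.2 ± 1.02 TPM in Col-0 (SD, n = 2 each), so cc was not lower in this transcript, and it lay between 5.01 and 6.35 TPM in the means of the 4 transgenic lines. The CMT3 level is thus no check of the cmt3-11 allele, and cc and the other names stand for the libraries with those labels. Coverage in the files implied 929522243 to 1452952104 aligned bases per library, with 50 bases as the commonest worth of 1 read in every library. Leaf markers were high in every group (RBCS1A, a subunit of the carbon-fixing enzyme, 13109 to 17805 TPM in the group means), and all 5 root markers were above 0 in every group. Of the 5 seed and flower markers, 2 seed genes were called higher in V1200R/cc against cc: CRA1, a storage protein, averaged 12.7 ± 1.24 TPM in line 15, 0.900 ± 1.10 TPM in line 9 and 0.186 ± 0.0579 TPM in cc (SD, n = 2 each), and OLE1, an oil body protein, averaged 6.10 ± 3.01 TPM in line 15 and was listed at 0 in cc. Per the methods, the FLAG vector also carries OLE1-RFP under the OLE1 promoter as a selection marker. OLE1 averaged 0.470 ± 0.664 TPM in V1200R/cc line 9, 0 TPM in CMT2/cc line 1 and 0.106 ± 0.150 TPM in CMT2/cc line 19 (SD, n = 2 each). CRU3, another seed storage gene, averaged 2.33 ± 2.30 TPM in V1200R/cc line 15 (SD, n = 2) and was not called. OLE1 reads in the transgenic lines may come from the construct, which was not tested. The part of CRA1 and OLE1 in the pseudogene values was not tested either.

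Most pseudogenes gave little or no signal. In none of the 12 libraries were 476 of the 952 above 0, while 182 were above 0 in all 12 and 26 reached 10 TPM in at least 1 library. The pseudogenes together took 0.0988% to 0.121% of all TPM. Their summed level was 1043 to 1109 TPM in the 4 V1200R/cc libraries, 988 to 1044 TPM in the 4 CMT2/cc libraries, 1157 and 1210 TPM in cc and 1072 and 1102 TPM in Col-0. Both cc libraries were above the other 10. An exact permutation test over libraries (two-sided) gave p = 0.333 for cc against Col-0, which is the smallest p that 2 against 2 can give. The same exact permutation test gave p = 0.133 for either construct against cc. No split of 2 against 4 is more extreme than this one, so that test could give no smaller p there. For V1200R/cc against CMT2/cc the exact permutation test gave p = 0.0571, where 0.0286 is the smallest that this exact permutation test can give. Without the 25 pseudogenes that passed the test in any comparison described here, the sums were 1014 to 1081 TPM in V1200R/cc, 951 to 1002 TPM in CMT2/cc, 1072 and 1114 TPM in cc and 1042 and 1066 TPM in Col-0. The lower cc library then lay within the range of V1200R/cc, and the difference in means between cc and Col-0 was 39.1 TPM, against 96.5 TPM with them. These 25 were chosen from the same libraries, 12 of them for a higher level in cc than in Col-0. A smaller difference without them was therefore fixed in advance. The number of pseudogenes above 0 was 282 to 294 in V1200R/cc, 286 to 306 in CMT2/cc, 304 and 329 in cc and 276 and 295 in Col-0, so that 1 cc library lay within the range of CMT2/cc. In bulk RNA, fewer cells with a transcript and less of it per cell cannot be told apart.

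**Figure D1:**
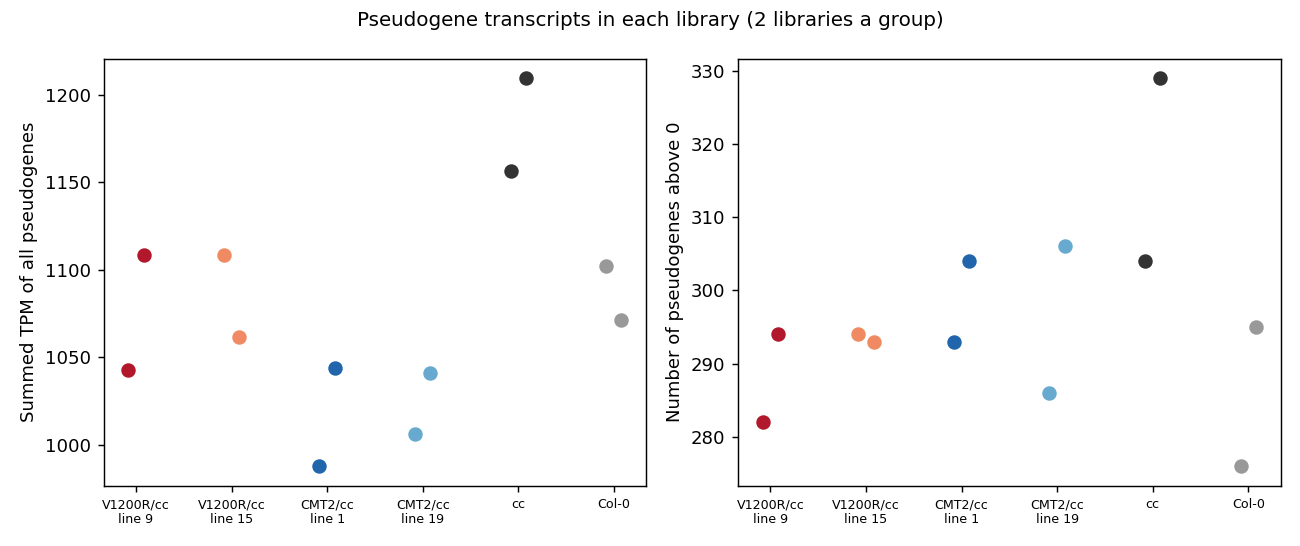
Summed TPM of the 952 pseudogenes (left) and the number of them above 0 (right), on axes that do not start at 0; each point is 1 library and each group has 2. Both cc libraries (1157 and 1210 TPM) lie above every other library in the sum, while in the number above 0 only 1 of them (329) does.

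The 5 pseudogenes with the highest mean level took 32.0% to 40.2% of the summed TPM, and none of them passed the test in the 4 comparisons. AT1G79245, annotated as a pseudogene of a winged helix-turn-helix repressor (chromosome 1, 5 exons), had 139 to 173 TPM in V1200R/cc, 108 to 123 TPM in CMT2/cc, 133 and 146 TPM in cc and 136 and 170 TPM in Col-0. V1200R/cc lay above CMT2/cc without overlap, by a log2 fold change of 0.46 (SE 0.09, limma adjusted p 0.0042) that stayed under the minimum size. AT1G05135 (54.0 to 129 TPM), AT4G04692 (52.5 to 71.2 TPM), AT2G16367 (34.2 to 86.4 TPM) and AT5G40130 (35.3 to 52.9 TPM) followed, each range taken over the 12 libraries. AT5G40130 is annotated as a pseudogene of RPL5B, a protein of the large ribosomal subunit. It was 95.6% identical to RPL5B over 183 bases, and 19.3% of its 50-base words occurred elsewhere in the genome, so reads could be shared between it and the coding gene, which itself had 345 to 492 TPM. For the median nuclear pseudogene that share was 0%, and it was over 5% in 242 of 941. A read is about as long as such a word, so the levels of those 242 are uncertain.

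For the test across features, a feature had to reach 0.5 TPM in at least 2 libraries, which 206 of the 952 pseudogenes and 23614 of all features did. A further 270 pseudogenes were above 0 somewhere and stayed below that filter: 31 reached 0.5 TPM in 1 library only, and 18 of the 206 passed with exactly 2 libraries. None of the 11 organellar pseudogenes passed. A feature was called when limma gave a Benjamini-Hochberg adjusted p below 0.05 over all features and a log2 fold change with a size of 1 or more, on the scale log2(TPM + 0.5). Because the filter can be met by 1 group alone, the counts that follow describe the 206 and not the pseudogenes as a class.

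In cc against Col-0, 12 of the 206 pseudogenes were called higher (5.83%, against 1.82% of all features) and 1 was called lower (0.485%, against 0.195% of all features). The share called higher was 0.546% in 20890 protein-coding genes, 7.14% in 238 long noncoding RNAs, 8.08% in 198 regions listed as newly transcribed, 18.3% in 865 TEs and 51% in 198 TE genes. The median log2 fold change of the 206 was 0.06, and that of all features 0.02. As a description of the 12, which that comparison chose, their summed level averaged 59.1 TPM in cc and 5.21 TPM in Col-0.

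In CMT2/cc against cc, 2 of the 206 were called higher (0.971%, against 0.263% of all features) and 9 were called lower (4.37%, against 1.75%). In V1200R/cc against cc, 1 was called higher (0.485%, against 1.27%) and 15 were called lower (7.28%, against 2.25%). The median log2 fold changes against cc were -0.10 for CMT2/cc and -0.06 for V1200R/cc, beside -0.03 and -0.05 for all features. These comparisons use the same 2 cc libraries as each other and as the comparison with Col-0, so a high value in cc moves all of them. In V1200R/cc against CMT2/cc, where cc does not enter, 5 were called higher (2.43%, against 2.05%) and 5 lower (2.43%, against 1.05%). Between the lines of a construct none was called by limma: in V1200R/cc line 15 against line 9, 5 were higher and 4 lower at an unadjusted p below 0.05, where 889 and 705 of all 23614 features were. In CMT2/cc line 19 against line 1, 10 were higher and 7 lower, beside 945 and 709 of all features.

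**Figure D2:**
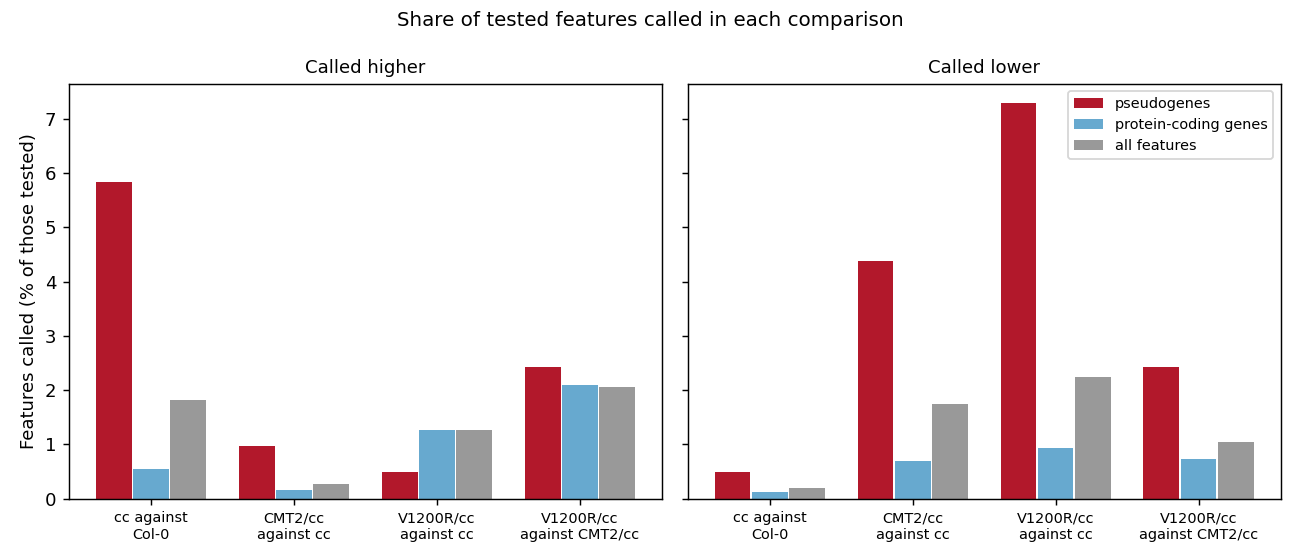
Percentage of tested features called higher (left) and lower (right) in the 4 comparisons, for the 206 pseudogenes, the 20890 protein-coding genes and all 23614 features; the axis starts at 0. The largest pseudogene share is the 7.28% called lower in V1200R/cc against cc, and the 5.83% called higher in cc against Col-0 comes next.

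The 12 pseudogenes called higher in cc fell into 3 sets by what happened in the transgenic lines. First, 7 were called lower than cc in both constructs, and 5 of the 12 were above 0 in the 2 cc libraries and in no other library. AT2G20910, annotated as a pseudogene of subunit B of the V1 part of the vacuolar ATPase, a proton pump, was the highest of them. The 2 cc libraries held 15.8 and 18.5 TPM, and the 8 transgenic and 2 Col-0 libraries were all listed at 0. From coverage this was about 330 and 426 reads in cc, and no other feature overlaps it. The fitted log2 fold change of cc against Col-0 was 5.14 (SE 0.20, limma adjusted p 6.7e-07) and depends on the pseudocount. In 5 of the 6 groups both libraries were at 0 and did not vary, so that the SE and p also reflect those zeros, as they do for the other pseudogenes above 0 in cc alone. AT2G20910 spans chr2:8994146-8996692 with 13 exons and matched VAB2, a coding gene for the same subunit, over all of its exonic length at 85.6% identity. In cc against Col-0, VAB2 itself had a log2 fold change of 0.10 (limma adjusted p 0.51) and stayed between 77.6 and 90.6 TPM in the 12 libraries. A stretch of 120 bases from each shows how alike they are, with the 10 positions at which they differ in capitals.
AT2G20910 (chr2:8995795-8995914, minus strand): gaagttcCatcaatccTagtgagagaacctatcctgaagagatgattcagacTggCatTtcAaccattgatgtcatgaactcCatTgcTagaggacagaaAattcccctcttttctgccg
VAB2, AT4G38510 (chr4:18013781-18013900, minus strand): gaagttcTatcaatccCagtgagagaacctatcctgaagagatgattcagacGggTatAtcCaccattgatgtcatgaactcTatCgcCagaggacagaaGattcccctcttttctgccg

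AT3G31908 and AT3G32377 are both annotated as pseudogenes of the reticulon family, proteins that shape the endoplasmic reticulum, and lie about 0.269 and 0.140 Mb from the TE-dense centre of chromosome 3. AT3G31908 had 7.35 and 7.49 TPM in cc and AT3G32377 had 2.01 and 2.63 TPM in cc, and both were listed at 0 in the other 10 libraries. They were 89.1% identical over 607 aligned exonic bases, and 17.1% and 15.2% of their 50-base words occurred elsewhere in the genome, so some reads may be split between them. Their closest coding gene was the same, AT5G58000, which ran from 7.93 to 12.5 TPM and was called in none of the 4 comparisons. An aligned stretch of 120 bases is given for the pair, with the 4 differing positions in capitals.
AT3G31908 (chr3:12903402-12903521, minus strand): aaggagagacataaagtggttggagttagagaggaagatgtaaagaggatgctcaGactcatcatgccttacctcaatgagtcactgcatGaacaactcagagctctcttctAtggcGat
AT3G32377 (chr3:13312747-13312866, minus strand): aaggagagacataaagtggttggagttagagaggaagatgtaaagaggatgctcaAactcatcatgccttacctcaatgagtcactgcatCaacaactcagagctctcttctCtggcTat

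The other 4 pseudogenes of this set were lower in level. AT2G11983, a pseudogene of SURF1, a factor for cytochrome c oxidase assembly, was above 0 in cc only, with 4.22 and 7.36 TPM. AT5G28230, a pseudogene of the glucose-6-phosphate translocator GPT2, had 0 TPM in the 4 V1200R/cc libraries, 0, 0, 0 and 0.175 TPM in CMT2/cc, 5.22 and 4.70 TPM in cc and 0.537 and 0.345 TPM in Col-0. All 8 transgenic libraries were thus below both Col-0 libraries, but neither construct was called against Col-0, with log2 fold changes of -0.90 for V1200R/cc (SE 0.20, limma adjusted p 0.027) and -0.80 for CMT2/cc (SE 0.20, limma adjusted p 0.036). AT2G10430, annotated as a pseudogene of a hypothetical protein, had 1.5 and 1.98 TPM in cc and at most 0.149 TPM elsewhere. Among the 12 it was the 1 whose closest RefSeq coding gene, AT3G28153, which the files list as a TE gene, was also called higher in cc (log2 fold change 1.34, limma adjusted p 0.028). AT4G04653, a pseudogene of a myb-like transcription factor, was likewise above 0 in cc only, with 0.798 and 0.913 TPM, which corresponds to about 2 reads in each cc library.

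In the second set were 3 pseudogenes that were called lower than cc in V1200R/cc and not in CMT2/cc. AT4G08093, annotated as a pseudogene of dihydroorotate dehydrogenase, an enzyme of pyrimidine synthesis, had 0.789, 0.398, 1.24 and 0.978 TPM in V1200R/cc, 1.90 and 1.61 TPM in CMT2/cc line 1, 3.52 and 3.03 TPM in CMT2/cc line 19, 3.43 and 3.33 TPM in cc and 0.411 and 0 TPM in Col-0. Every V1200R/cc library was below every CMT2/cc library, and line 19 of CMT2/cc overlapped cc. Against CMT2/cc the log2 fold change of V1200R/cc was -1.15 (SE 0.20, limma adjusted p 0.0032), and against cc it was -1.56 (SE 0.25, limma adjusted p 0.0032). The call against CMT2/cc was lost in line 9 against line 1 (-1.06, limma adjusted p 0.056) and with a pseudocount of 1 (-0.91). CMT2/cc differed from cc by -0.41 (SE 0.25, limma adjusted p 0.44) and was called higher than Col-0 with 2.11 (SE 0.25, limma adjusted p 0.0014). Between line 19 and line 1 of CMT2/cc the difference of 0.74 did not pass (SE 0.29, limma adjusted p 0.67).

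AT3G48130, a pseudogene of the ribosomal protein gene BBC1, had 0 TPM in the 4 V1200R/cc libraries, 0.596, 0.537, 1.58 and 0 TPM in CMT2/cc, 1.61 and 3.35 TPM in cc and 0 in both Col-0 libraries. AT4G06748, a pseudogene of TSA1, which encodes a partner of the TONSOKU protein, had 0 TPM in V1200R/cc, 1.52, 0.163, 0 and 0.617 TPM in CMT2/cc, 3.13 and 1.51 TPM in cc and 0 in Col-0. For both, CMT2/cc lay between cc and V1200R/cc in its mean, with spread between libraries as wide as the means, and V1200R/cc against CMT2/cc did not pass (limma adjusted p 0.075 for AT3G48130 and 0.12 for AT4G06748). Their calls against Col-0 were kept in 7 of 21 and in 10 of 22 alternatives. The limma adjusted p of AT3G48130 was 0.036, and 0.20 without cc replicate 2, and that of AT4G06748 was 0.037, and 0.23 without cc replicate 1. Without the same libraries the limma adjusted p of V1200R/cc against cc was 0.095 for AT3G48130 and 0.10 for AT4G06748. AT3G48130 corresponds to about 8 and 18 reads in cc and overlaps the coding gene AT3G48131 on the same strand, which had at most 0.0208 TPM in any library.

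The third set was called lower than cc in neither construct, and both members were named after their values were seen because they fell outside the 10 largest rises. AT3G30122, annotated as a pseudogene of peptide chain release factor 2, had 3.98, 4.0, 3.57 and 4.53 TPM in V1200R/cc, 6.40, 6.89, 9.29 and 7.49 TPM in CMT2/cc, 7.73 and 8.01 TPM in cc and 3.55 and 3.46 TPM in Col-0. CMT2/cc and cc overlapped, V1200R/cc was below both without overlap, and its lowest library lay just above Col-0. The log2 fold changes were 1.06 for cc against Col-0 (SE 0.14, limma adjusted p 0.0021), -0.89 for V1200R/cc against cc (SE 0.12, limma adjusted p 0.0011), -0.82 for V1200R/cc against CMT2/cc (SE 0.10, limma adjusted p 0.00036) and -0.08 for CMT2/cc against cc (SE 0.12, limma adjusted p 0.81). The fall in V1200R/cc therefore passed the adjusted p and missed the minimum size of 1. Its matching coding gene AT1G56350 ran from 4.51 to 6.41 TPM and differed by -0.01 on the log2 scale between V1200R/cc and cc (limma adjusted p 0.96). AT3G30122 was 94.6% identical to AT1G56350 over 371 bases, and 9.79% of its 50-base words occurred elsewhere in the genome. Some reads may therefore be shared between AT3G30122 and AT1G56350.

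AT2G04120, a pseudogene of the small GTPase gene RABA2D, had 4.14, 3.06, 2.16 and 3.80 TPM in V1200R/cc, 2.11, 2.06, 2.71 and 3.41 TPM in CMT2/cc, 3.13 and 2.54 TPM in cc and 0.931 and 1.07 TPM in Col-0. Col-0 stood below all 10 other libraries, which overlapped. It was called higher than Col-0 in cc (log2 fold change 1.15, SE 0.24, limma adjusted p 0.029), in CMT2/cc (1.01, SE 0.21, limma adjusted p 0.015) and in V1200R/cc (1.3, SE 0.21, limma adjusted p 0.0053). In 62.6% of its 50-base words it matched other places in the genome, the highest share of the 25 called pseudogenes, and its call in cc was lost when any 1 of the 4 cc and Col-0 libraries was left out (limma adjusted p 0.09 to 0.19).

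**Figure D3:**
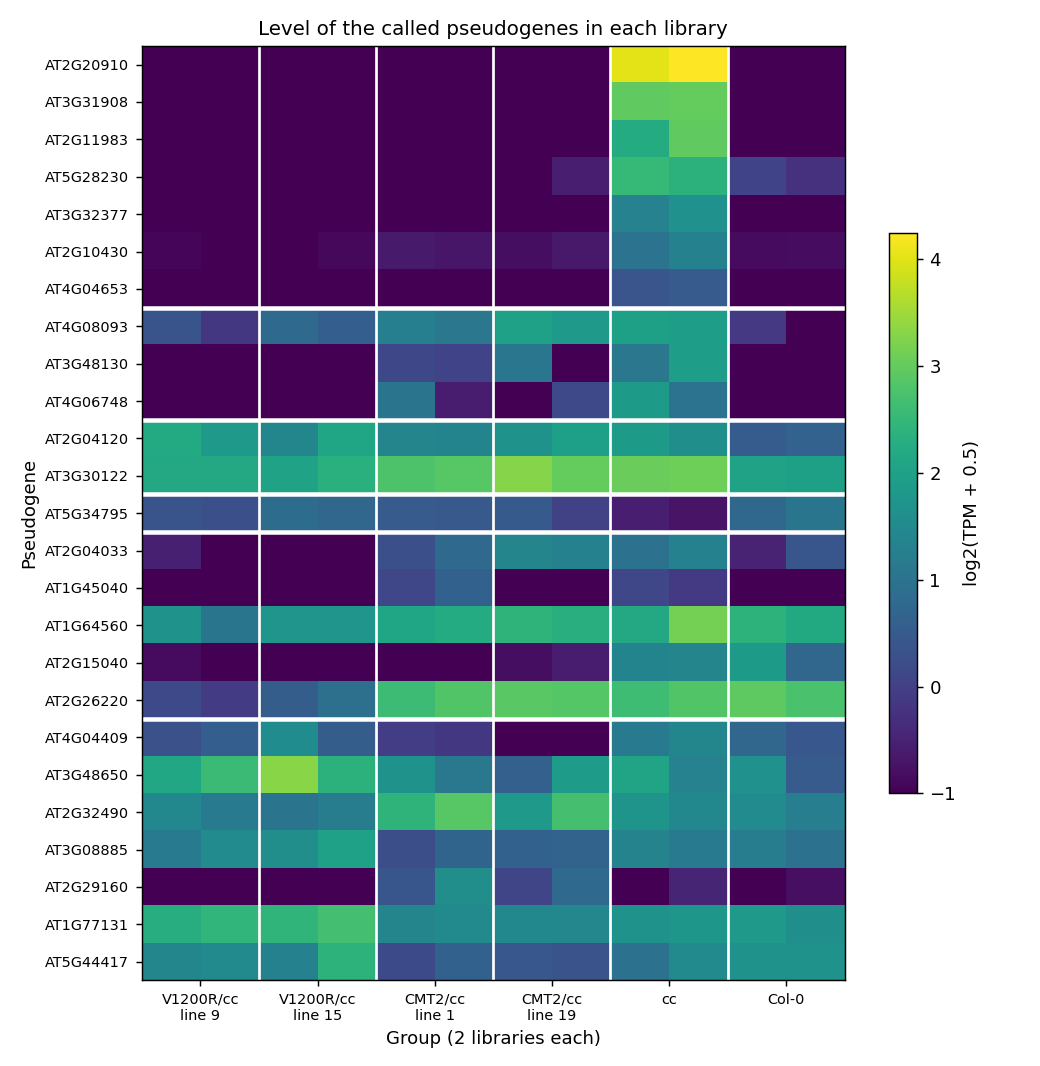
Level of each of the 25 pseudogenes called in at least 1 of the 4 comparisons, as log2(TPM + 0.5), in each of the 12 libraries (2 columns a group; -1 is a level of 0). White lines part, from the top, those higher in cc and lower in both constructs (7), those higher in cc and lower in V1200R/cc (3), those higher in cc and lower in neither (2), the 1 lower in cc, those not higher in cc but lower in V1200R/cc (5), and those called only against CMT2/cc or in CMT2/cc (7).

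AT5G34795 was the 1 pseudogene called lower in cc than in Col-0. Annotated as a pseudogene of a DUF1985 protein, it had 0.790, 0.716, 1.31 and 1.17 TPM in V1200R/cc, 0.931, 0.890, 0.906 and 0.520 TPM in CMT2/cc, 0.183 and 0.105 TPM in cc and 1.19 and 1.56 TPM in Col-0. Both cc libraries lay below the other 10. It was called higher than cc in V1200R/cc (log2 fold change 1.20, SE 0.19, limma adjusted p 0.0029) and in CMT2/cc (1.02, SE 0.19, limma adjusted p 0.015), the CMT2/cc call being lost without cc replicate 2 (limma adjusted p 0.11) or without CMT2/cc line 19 replicate 1 (log2 fold change 0.90). The TE that overlaps its end on the opposite strand, AT5TE46165, had means of 1.39 and 1.45 TPM in the V1200R/cc lines, 1.41 and 1.13 TPM in the CMT2/cc lines, 0.449 TPM in cc and 1.28 TPM in Col-0. Reads from the pseudogene and the TE cannot be told apart where they overlap unless strand was used in counting. AT5G34795 had about 4 and 3 reads in cc, and 13.0% of its 50-base words occurred elsewhere in the genome.

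A further 5 pseudogenes were called lower in V1200R/cc against cc with no such call for cc over Col-0. AT2G26220, annotated as a pseudogene of a ribonuclease H-like protein, the fold of many retroelement-derived nucleases, had 0.615, 0.454, 0.954 and 1.41 TPM in V1200R/cc, 5.58, 6.61, 7.04 and 6.80 TPM in CMT2/cc, 5.67 and 6.60 TPM in cc and 7.26 and 6.22 TPM in Col-0. The 4 V1200R/cc libraries lay below the other 8, whose groups overlapped. Its log2 fold change was -2.34 for V1200R/cc against cc (SE 0.15, limma adjusted p 8.3e-06), -2.41 against CMT2/cc (SE 0.12, limma adjusted p 2.2e-06) and -2.46 against Col-0 (SE 0.15, limma adjusted p 1.0e-05). About 22 to 58 reads stood behind its value in V1200R/cc, against 194 to 280 in CMT2/cc. The TE gene and the TE inside it were listed at 0 in all 12 libraries, and it lies 6.63 Mb from the TE-dense centre of chromosome 2.

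AT2G15040, a pseudogene of the receptor-like protein gene RLP53, was low in all transgenic lines. It had 0.0525, 0, 0 and 0 TPM in V1200R/cc, 0, 0, 0.0756 and 0.171 TPM in CMT2/cc, 2.07 and 2.13 TPM in cc and 3.13 and 1.16 TPM in Col-0. The 8 transgenic libraries did not overlap cc or Col-0, and cc and Col-0 overlapped. Log2 fold changes against cc were -2.34 for V1200R/cc (SE 0.29, limma adjusted p 0.00064) and -2.22 for CMT2/cc (SE 0.29, limma adjusted p 0.0023). AT2TE26610, a TE on the same strand that overlaps its end, followed it, with means of 0.0278 and 0.0356 TPM in the V1200R/cc lines, 0.0482 and 0.0952 TPM in the CMT2/cc lines, 2.01 TPM in cc and 2.14 TPM in Col-0. The closest RefSeq coding gene of AT2G15040, AT2G21460, which the files list as a TE gene, was above 0 in cc only (0.665 ± 0.158 TPM, SD, n = 2) and was also called lower in both constructs. AT2G15040 was 97.8% identical to AT2G21460 over 449 bases, and 15.6% of its 50-base words occurred elsewhere in the genome. Reads may therefore be shared between AT2G15040 and AT2G21460.

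The remaining 3 of the 5 had few reads or a wide spread. AT2G04033, a pseudogene of a putative membrane lipoprotein, had 0.187, 0, 0 and 0 TPM in V1200R/cc, 0.714, 1.24, 2.1 and 1.99 TPM in CMT2/cc, 1.46 and 1.98 TPM in cc and 0.218 and 0.815 TPM in Col-0. V1200R/cc was below all other libraries, at no more than about 1 read a library against 3 to 10 in CMT2/cc and cc, and the log2 fold change against CMT2/cc was -1.83 (SE 0.23, limma adjusted p 0.00048). AT1G64560 and AT1G45040, named after their values were seen, were near the threshold: AT1G64560, a pseudogene of a ribosomal RNA adenine dimethylase, had 1.56 to 2.85 TPM in V1200R/cc against 4.02 and 8.33 TPM in cc, and its call was lost without cc replicate 2 (limma adjusted p 0.16), without V1200R/cc line 15 replicate 1 (0.051) or without V1200R/cc line 9 replicate 2 (log2 fold change -0.95). AT1G64560 overlaps the antisense RNA AT1G08707 and the coding gene AT1G64561, and reads may be shared between them. AT1G64561 averaged 1.22 and 0.915 TPM in V1200R/cc lines 9 and 15 and 3.32 TPM in cc. AT1G45040, a pseudogene of a reverse transcriptase-related protein, stood at 0 in all V1200R/cc libraries, the 2 of CMT2/cc line 19 and both Col-0 libraries, and had 0.579 and 1.05 TPM in the libraries of CMT2/cc line 1, against 0.590 and 0.422 TPM in cc, which in cc is about 3 and 2 reads. Its CMT2/cc lines did not overlap, with a log2 fold change of -1.37 for line 19 against line 1 (SE 0.25, limma adjusted p 0.14). That call was lost without cc replicate 1 (limma adjusted p 0.068).

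**Figure D4:**
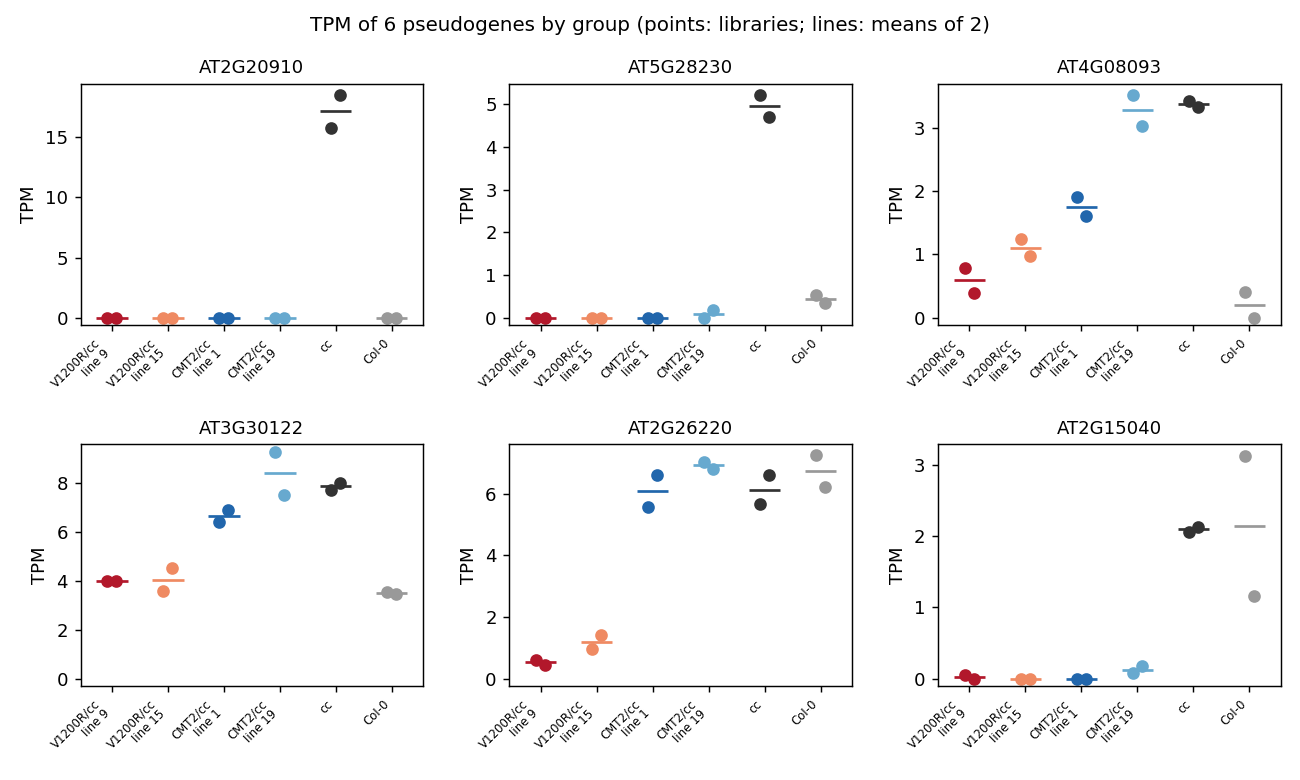
TPM of 6 pseudogenes by group, with a point for each library and a line at the mean of 2 libraries; each panel has its own axis. AT2G20910 and AT5G28230 are high in cc only, AT4G08093 and AT3G30122 lie lower in V1200R/cc beside CMT2/cc, AT2G26220 is low in V1200R/cc only, and AT2G15040 is low in all 4 transgenic lines.

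In the direct comparison of the constructs, AT4G08093, AT2G04033 and AT2G26220 were among the 5 called lower in V1200R/cc. The other 2 were high in CMT2/cc rather than low in V1200R/cc. AT2G32490, a second ribonuclease H-like pseudogene, had 2.25, 1.78, 1.52 and 1.83 TPM in V1200R/cc and 4.84, 6.94, 3.07 and 6.02 TPM in CMT2/cc, with 2.80 and 2.24 TPM in cc and 2.39 and 1.86 TPM in Col-0. AT2G29160, annotated as a pseudogene of the senescence-associated gene SAG13, was listed at 0 in all 4 V1200R/cc libraries and had 0.828, 2.53, 0.574 and 1.23 TPM in CMT2/cc, 0 and 0.227 TPM in cc and 0 and 0.0770 TPM in Col-0. CMT2/cc was above every other library in both pseudogenes. The log2 fold changes of V1200R/cc against CMT2/cc were -1.24 for AT2G32490 (SE 0.20, limma adjusted p 0.0019) and -1.73 for AT2G29160 (SE 0.28, limma adjusted p 0.0021). AT2G29160 was also the second pseudogene called higher in CMT2/cc than in cc (log2 fold change 1.46, SE 0.35, limma adjusted p 0.048), but that call was lost in 17 of 24 alternatives, among them when any 1 of the 12 libraries except CMT2/cc line 1 replicate 1 was left out (limma adjusted p 0.052 to 0.23).

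Of the 5 pseudogenes called higher in V1200R/cc against CMT2/cc, 4 were above 0 in all 12 libraries. AT1G77131, a pseudogene of PGSIP2, a glucuronosyltransferase of xylan, had 4.34, 4.98, 4.88 and 5.89 TPM in V1200R/cc, 2.13, 2.34, 2.22 and 2.19 TPM in CMT2/cc, 2.76 and 2.92 TPM in cc and 3.03 and 2.56 TPM in Col-0. Every V1200R/cc library was above the other 8, and the log2 fold change against CMT2/cc was 1.02 (SE 0.10, limma adjusted p 0.00013). The size was just past the minimum and was 0.95 to 0.99 without V1200R/cc line 9 replicate 2, line 15 replicate 2 or CMT2/cc line 1 replicate 1. PGSIP2 was called higher too (log2 fold change 1.09, limma adjusted p 7.2e-06): it averaged 44.4 ± 3.51 and 44.5 ± 0.612 TPM in V1200R/cc lines 9 and 15 and 20.4 ± 0.521 and 20.8 ± 2.72 TPM in CMT2/cc lines 1 and 19 (SD, n = 2 each). The pseudogene was 83.6% identical to it over 1801 bases, and 3.01% of its 50-base words occurred elsewhere. Of the 4 other pseudogenes called higher, 3 had a closest coding gene that could be tested, and none of these was called.

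AT3G08885 is annotated as a pseudogene of ferritin 1, the iron store of plastids. It had 1.71, 2.38, 2.53 and 3.51 TPM in V1200R/cc, 0.703, 1.11, 1.05 and 1.09 TPM in CMT2/cc, 2.04 and 1.77 TPM in cc and 1.81 and 1.47 TPM in Col-0, with a log2 fold change against CMT2/cc of 1.00 (SE 0.16, limma adjusted p 0.0017) that was 0.90 to 0.99 without any 1 of 4 of these libraries. AT5G44417, a pseudogene of an FAD-binding berberine-type oxidase, had 2.15, 2.33, 1.97 and 4.73 TPM in V1200R/cc, 0.635, 1.04, 0.839 and 0.774 TPM in CMT2/cc, 1.46 and 2.35 TPM in cc and 2.71 and 2.74 TPM in Col-0. In both, CMT2/cc was below all other libraries, while V1200R/cc overlapped cc and Col-0. The log2 fold change of AT5G44417 against CMT2/cc was 1.25 (SE 0.23, limma adjusted p 0.0040), and 0.98 without V1200R/cc line 15 replicate 2. AT3G48650, annotated as a pseudogene of a DUF677 protein, had 3.95, 5.43, 9.40 and 4.71 TPM in V1200R/cc and 2.75, 1.63, 1.03 and 3.21 TPM in CMT2/cc. Its call (log2 fold change 1.28, SE 0.37, limma adjusted p 0.032) was lost without any 1 of 7 libraries (limma adjusted p 0.051 to 0.11).

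AT4G04409, a pseudogene of a histone H2A gene, was the last of the 5. It had 0.730, 0.981, 2.41 and 0.958 TPM in V1200R/cc, 0.463, 0.406, 0 and 0 TPM in CMT2/cc, 1.77 and 2.15 TPM in cc and 1.16 and 0.843 TPM in Col-0. CMT2/cc lay below all other libraries, with 0 to about 2 reads. It was called lower in CMT2/cc than in cc (log2 fold change -1.84, SE 0.27, limma adjusted p 0.0042), a call lost without cc replicate 2 (limma adjusted p 0.064), and higher in V1200R/cc against CMT2/cc (1.29, SE 0.22, limma adjusted p 0.0024).

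The position of the called pseudogenes is given as a description, without a test. With the centre of a chromosome taken as the middle of the 2 Mb window with the most TE bases, 9 of the 12 called higher in cc lay within 3 Mb of it, and so did the 1 called lower, against 64 of all 206 tested and 418 of the 941 nuclear pseudogenes. The median distance was 1.14 Mb for the 12 and 4.85 Mb for the 206. Of all nuclear features, 232 of the 430 called higher in cc lay within 3 Mb, while 10.4% of those tested did. Near the centre fewer pseudogenes passed the filter (15.3% of 418, against 27.2% of 523 farther out). Of the 15 called lower in V1200R/cc than in cc, 10 lay within 3 Mb, as did 252 of 532 of all features, and of the 9 called lower in CMT2/cc, 8 did, as did 212 of 413 of all features. Of the 5 called higher and the 5 called lower in V1200R/cc against CMT2/cc, AT4G04409 and AT4G08093 did, beside 37 of 484 higher and 61 of 248 lower among all features.

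**Figure D5:**
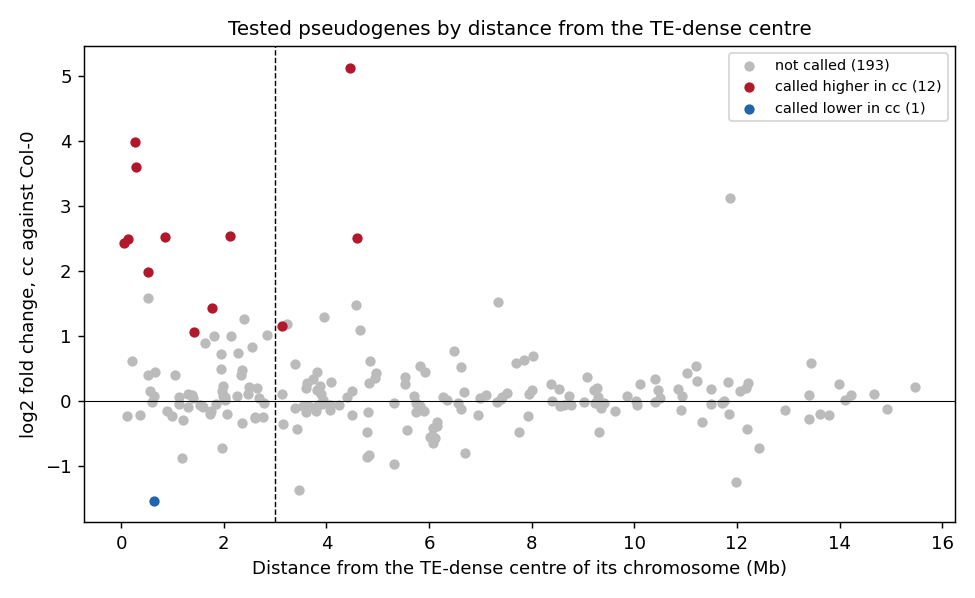
Log2 fold change of cc against Col-0, on the log2(TPM + 0.5) scale, for the 206 tested pseudogenes against their distance in Mb from the TE-dense centre of their chromosome; the dashed line is at 3 Mb. Of the 12 points called higher in cc, 9 lie left of the line, and the highest, AT2G20910 at 5.14, lies at 4.46 Mb; the uncalled point above 3 at 11.9 Mb is AT5G02244, which switches between 0 and about 30 TPM within groups.

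As a description without a background, another feature called higher in cc lay within 4698 bases of 4 of the 12. A TE began 48 bases from AT2G10430, long noncoding RNAs lay 253 bases from AT3G31908 and 276 bases from AT4G04653, and the coding gene AT5G28235 lay 4698 bases from AT5G28230. AT5G28235 averaged 21.9 TPM in cc against 0.0401 TPM in Col-0 (log2 fold change 5.37, limma adjusted p 1.3e-07). For the other 8, the nearest such feature was 23536 to 195328 bases away. How often other tested features lie this near to one called higher in cc was not computed.

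By overlap, 126 of the 206 shared no base with another listed feature, and they held 7 of the 12 called higher in cc, 6 of the 9 called lower in CMT2/cc and 6 of the 15 called lower in V1200R/cc. When all 13084 features that overlap no other were fitted alone, 121 were called higher in cc, 143 lower in CMT2/cc and 184 lower in V1200R/cc. The 33 pseudogenes that overlap a protein-coding gene held 1, 0 and 2 of the pseudogenes so called, and the 39 that overlap a TE held 4, 3 and 5. For these classes the share over all features was not computed, so their counts have no background here. Only 3 of the 12 had a single exon, against 101 of the 206 tested. The median density of CHG cytosines, both strands counted, was 49.1 per kb of span in the 12 (19.6 to 146 per kb) and 58.4 per kb in the 206. The median identity to the closest coding gene was 84.3% in the 12 and 85.7% in the 206.

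By annotation, families were grouped after their notes were seen and are described without a test, beside 21.6% of all 952 pseudogenes that passed the filter and 476 never above 0. Over all features, 2.25% were called lower in V1200R/cc against cc, 1.75% in CMT2/cc against cc and 1.05% in V1200R/cc against CMT2/cc. Of 74 F-box pseudogenes, from the large family of substrate adaptors of ubiquitin ligases, 13 passed the filter and none was called by limma in the 4 comparisons. The 41 of kinases (14 tested) and the 17 of cytochromes P450 (4 tested) also gave no call, nor did the 12 of the C1 domain type (4 tested). The 18 of ribosomal proteins (7 tested) held 1 call, AT1G64560, whose note names a ribosomal RNA enzyme, and the 20 of disease resistance or receptor-like proteins (9 tested) held AT2G15040, lower than cc in both constructs. Among 13 of the self-incompatibility S1 type, 12 were at 0 in all libraries and none was tested. Of 55 annotated as reverse transcriptase, ribonuclease H-like or transposase, 4 were tested. AT2G26220 and AT1G45040 were called lower in V1200R/cc against cc, and AT2G26220 and AT2G32490 against CMT2/cc. AT1G45040 had about 3 and 2 reads in cc. With 4 tested, these calls describe single pseudogenes and not the family.

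The closest coding genes of the called pseudogenes mostly did not pass, as is so for most features. Their matches covered from 15% (AT2G26220, by CUE1) to 100% (AT2G20910, by VAB2) of the pseudogene sequence. A closest gene therefore need not be the annotated parent. All 12 called higher in cc had a closest gene that was tested, and 1 of these was called higher too, beside 1.82% of all features. Of the 15 called lower in V1200R/cc, 13 had one tested and 2 of these were called lower, beside 2.25% of all features. Among these 2 was AT2G21460, which may share reads with AT2G15040. No closest gene was called the other way in any of the 4 comparisons.

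Among 11 genes of DNA methylation and silencing, all tested, CMT2 alone was called lower in cc than in Col-0 and none was called higher. CMT2 was called higher and CMT3 lower than cc in both constructs, and none of the 11 was called between the constructs. CMT2 still differed there, by a log2 fold change of 0.47 (SE 0.07, limma adjusted p 0.00093) that stayed under the minimum size. V1200R/cc line 9 and CMT2/cc line 1 were close in CMT2, at 119 and 118 TPM. Between these 2 lines limma called 0 pseudogenes higher and 5 lower, beside 281 and 165 of all features. The part of the CMT2 level in the pseudogene differences between the constructs was not tested. ROS1, which removes DNA methylation, averaged 13.5 and 13.3 TPM in the V1200R/cc lines, 11.1 and 14.4 TPM in the CMT2/cc lines, 23.6 TPM in cc and 15.9 TPM in Col-0 without reaching the minimum fold change. Of 7 genes of nonsense-mediated decay and the exon junction complex, all tested, none was called in any comparison. UPF1, the central helicase of that pathway, averaged 35.7 and 37.3 TPM in the V1200R/cc lines, 40.6 and 40.1 TPM in the CMT2/cc lines, 41.5 TPM in cc and 41.7 TPM in Col-0, and its largest log2 fold change in the 4 comparisons was -0.18, in V1200R/cc against cc (limma adjusted p 0.064).

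Replicates agreed to a median absolute log2 difference of 0.19 to 0.23 over the 206 pseudogenes in the 6 groups, with 12 to 22 pseudogenes a group differing by more than 1. Of the 206, 15 had a group in which 1 replicate was 0 and its partner reached 1 TPM or more, and AT3G48130 was the 1 called among them. The 1 that did so at 10 TPM or more, AT5G02244, named after its values were seen, is annotated as a pseudogene of SCE1, the SUMO-conjugating enzyme. The values were 31.5 and 32.4 TPM for V1200R/cc line 9, 0 and 0 for line 15, 0 and 29.4 TPM in CMT2/cc line 1, 0 and 32.6 TPM in line 19, 29.2 and 34.6 TPM in cc and 0 and 26.9 TPM in Col-0. It was either at 0 or near 30 TPM in every library, and in the 3 groups whose libraries disagree replicate 1 was the one at 0, while SCE1 stayed between 90.9 and 107 TPM. Its exons matched SCE1 over 496 aligned bases at 91.5% identity, and 18.7% of its 50-base words occurred elsewhere. Whether a 0 in these files is an absent transcript or a failed estimate was not tested.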

How the data were processed

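Libraries were made from whole seedlings. Per the methods and the submitters' processing notes, fastp was used to filter reads, HISAT2 2.0.0 to place them on TAIR10 and StringTie to estimate gene abundance, and the deposited files list TPM, FPKM and coverage (mean read depth) for each feature of each library. The strand setting and the treatment of multi-mapped reads are not given in the sources used here, so overlapping and near-identical features may share reads.

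TPM is not a count, so log2(TPM + 0.5) was tested with limma 3.58.1 (R 4.3.3, variance trend on) over 23614 features with at least 0.5 TPM in 2 or more libraries. All 12 libraries and 6 groups entered 1 fit, a construct was the mean of its 2 lines, and p-values were adjusted over all tested features (Benjamini-Hochberg). Sums over pseudogenes were compared by exact permutation (scipy 1.17.1). For the read numbers of pseudogenes, coverage times exonic length gave aligned bases, and 50 bases were taken as 1 read. Positions were read from RefSeq TAIR10.1, and closest coding genes were found with blastn 2.17.0. The script was tested on simulated data.

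The members and gene lists were chosen with earlier results of these data known. Named are the 10 largest called rises and falls of each comparison, the 5 pseudogenes with the highest mean TPM, the listed genes and the closest coding genes. Alternatives were another pseudocount (0.1 or 1), other filters, FPKM, quantile normalization, single lines, fewer libraries, the replicate block and each library left out. A further 2, leaving out features that switch to 0 and summing overlapping features, were added after seeing the data.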

Additional observations from a re-analysis of the deposited data

Results flagged for a closer look

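For 10 pseudogenes the effects of the constructs against cc differed by the test of that difference, which is V1200R/cc against CMT2/cc and does not use the cc libraries. In the first 5 given, 1 of the constructs was also called against cc. AT2G26220, the ribonuclease H-like pseudogene, had a log2 fold change against cc of -2.34 in V1200R/cc and 0.08 in CMT2/cc, a difference of -2.41 (limma adjusted p 2.2e-06). AT2G04033, the membrane lipoprotein pseudogene, had -2.03 in V1200R/cc and -0.20 in CMT2/cc, a difference of -1.83 (limma adjusted p 0.00048), at about 10 reads or fewer in every library. AT4G08093, the dihydroorotate dehydrogenase pseudogene, had -1.56 in V1200R/cc and -0.41 in CMT2/cc, a difference of -1.15 (limma adjusted p 0.0032). In line 9 against line 1 that difference was -1.06 and was not called (limma adjusted p 0.056). AT2G29160, the SAG13 pseudogene, had -0.27 in V1200R/cc and 1.46 in CMT2/cc, a difference of -1.73 (limma adjusted p 0.0021). AT4G04409, the histone H2A pseudogene, had -0.56 in V1200R/cc and -1.84 in CMT2/cc, a difference of 1.29 (limma adjusted p 0.0024) that was 0.53 in line 9 against line 1 (limma adjusted p 0.35). In the other 5, neither construct was called against cc. AT2G32490, the second ribonuclease H-like pseudogene, had -0.37 in V1200R/cc and 0.88 in CMT2/cc, a difference of -1.24 (limma adjusted p 0.0019). The differences of the remaining 4 were 1.02 for AT1G77131 (limma adjusted p 0.00013), 1.00 for AT3G08885 (0.0017), 1.25 for AT5G44417 (0.0040) and 1.28 for AT3G48650 (0.032). Every V1200R/cc library lay on the same side of every CMT2/cc library in all 10, which is a description only, since this comparison chose them. The share of all features that separate in this way was not computed. With 2 libraries a group, single libraries that stand apart were not tested for.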

How the results depend on the processing

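No call of a named pseudogene changed direction: of 1214 values under the alternatives, 1106 stayed past the threshold and 108 did not. In cc against Col-0, the 12 called higher became 5 with a mean of at least 1 TPM, 7 with features that overlap no other and 7 with the libraries of those 2 groups alone, and the 1 called lower became 0 in each of these and 3 after quantile normalization. In CMT2/cc against cc, the 2 called higher became 0 with FPKM, with line 19 alone, with a mean of at least 1 TPM, without overlapping features and with a pseudocount of 1, became 1 without a filter, with those groups' libraries alone and with overlapping features summed, and became 4 by adjusted p alone and with a pseudocount of 0.1. The 9 called lower became 2 with a mean of at least 1 TPM. In V1200R/cc against cc, the 1 called higher became 0 with FPKM, line 9 alone, a mean of at least 1 TPM, no overlapping features and a pseudocount of 1, 2 after quantile normalization and 3 by adjusted p alone. The 15 called lower became 25 by adjusted p alone, 5 with a mean of at least 1 TPM and 6 without overlapping features. In V1200R/cc against CMT2/cc, the 5 called higher became 20 by adjusted p alone, 3 with FPKM, 3 without overlapping features, 9 with a pseudocount of 0.1, 2 with a pseudocount of 1 and 0 in line 9 against line 1, and the 5 called lower became 19 by adjusted p alone, 3 with a mean of at least 1 TPM, 2 without overlapping features and 9 with a pseudocount of 0.1. By adjusted p alone, 3204 higher and 3284 lower of all 23614 features were called in V1200R/cc against CMT2/cc. The stricter mean and the overlap filter leave fewer pseudogenes to test, and for the other settings the cause was not tested.

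Leaving out 1 library at a time gave 9 to 12 higher and 1 to 2 lower in cc against Col-0, 0 to 2 higher and 8 to 10 lower in CMT2/cc against cc, 1 to 3 higher and 13 to 16 lower in V1200R/cc against cc, and 2 to 7 higher and 5 to 8 lower in V1200R/cc against CMT2/cc. Where 1 library of a group remained, it was assumed to vary like the other groups. Replicate numbers did not pair the libraries: correlations of their deviations between groups were -0.068 to 0.11, with 2 of 15 above 0.1. With the replicate block, 10 were called higher and 1 lower in cc against Col-0, AT3G48130 and AT4G06748 being lost, 2 and 9 in CMT2/cc against cc, 1 and 15 in V1200R/cc against cc, and 5 and 5 in V1200R/cc against CMT2/cc. Depth limits pseudogenes with few reads: AT4G04653, for example, rests on about 2 reads in each cc library.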
